A study of Homo sapiens with 12 samples.

Results

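The abundant tRNA features of extracellular vesicles (EV) are those features of the tRNA count table that held, on average over the 12 libraries, at least 0.1% of the counts in that table. They numbered 107 of the 1424 features. Features were linked where their counts differed by at most 5% of the larger value, or by at most 2 counts, in every library, and features joined by such links, directly or through another feature, are described as one set. This gave 88 sets, numbered by the rank of their first feature and not by their summed share. Features joined only through another differed by up to 5.52% in the fifth set and 6.23% in set 38. The features were thus selected on their measured mean shares, so the levels themselves are a description, and the comparisons between stages are what was tested.

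The study differentiated the established human induced pluripotent stem cell (hiPSC) line iPS(IMR90)-4 into cardiomyocytes and collected EV from the culture medium at 4 stages, with 3 independent cultures per stage. EV were separated on a density gradient, and their small RNA was sequenced. hiPSC-EV came from undifferentiated cells at day 0, in monolayers in expansion medium (TeSR-E8) conditioned for 24 h. CPC-EV came from cardiac progenitor cells at day 6, in monolayers in differentiation medium without insulin conditioned for 72 h. CMi-EV came from immature cardiomyocytes at day 15, grown as aggregates in suspension in maintenance medium (RPMI with B27 supplement) conditioned for 48 h. CMm-EV came from cardiomyocytes at day 35 after culture as suspended aggregates in glucose-free maturation medium with galactose and fatty acids, again conditioned for 48 h. Medium changed with stage at every step, conditioning time at both steps up to CMi-EV, and culture format between CPC-EV and CMi-EV, and where they changed together they cannot be told apart from stage. The libraries of a stage come from 1 cell line, so the spread between them is a spread between cultures and not between donors.

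Transfer RNA (tRNA) brings amino acids to the ribosome, and each one reads codons through its anticodon. Cells also cut mature tRNA, often in the anticodon loop by angiogenin or near the loops by other nucleases, into shorter fragments that are stable enough to be common in body fluids and in vesicle preparations. Modified bases can stop reverse transcription, so sequencing counts of different tRNA do not compare their amounts. Tests of features therefore compare the same feature between stages, and ranks and shares of different features describe counts only. The count table does not separate whole tRNA from fragments.

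The table lists its features by identifiers that neither the deposited files nor the available reference pair with a tRNA name, an anticodon or a sequence. For this reason no sequence is shown, and no isotype can be given. At most 2 identifiers of features that rose and 2 of features that fell are printed, and other features are called by their rank of mean share. Many tRNA genes exist in nearly identical copies that share reads, so counts of similar features are not independent of each other. The counts are expected counts, which divide reads that match several features among them. Of the non-zero values of the abundant features, 86.4% were not whole numbers (tolerance 1e-06).

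The counts on tRNA were 151694, 391335 and 421873 in hiPSC-EV 1, 2 and 3. They were 257846, 397263 and 278400 in CPC-EV, 205097, 221097 and 124213 in CMi-EV, and 104573, 281616 and 181521 in CMm-EV. The shallowest tRNA library was thus CMm-EV 1 and the deepest hiPSC-EV 3. A feature without a count could still hold up to 3 counts, which is 0.000711% of the tRNA counts in hiPSC-EV 3 and 0.00287% in CMm-EV 1. Each of the 107 features was detected in all 12 libraries and entered every test. Intervals and floors cover counting error only, since the reads were amplified by PCR and carry no molecular identifiers.

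Some libraries stood apart from the others of their stage. In CMm-EV 1, 14 abundant features were at least 3 times higher than in both CMm-EV 2 and CMm-EV 3, and together they took 25.6% of its tRNA counts against 3.08% and 2.67%. In the other stages the same 14 features summed to between 0.892% in hiPSC-EV 2 and 8.65% in CMi-EV 2. Across the 107 features, which are not independent replicates, Pearson's r of log2 shares was 0.644 between CMm-EV 1 and CMm-EV 2, 0.659 between CMm-EV 1 and CMm-EV 3, and 0.957 between CMm-EV 2 and CMm-EV 3. CMm-EV 1 also had a lower share of miRNA among the counts on 5 RNA classes (76.9% against 89% and 89.3%) and more circular RNA (1.67% against 0.449% and 0.265%). The part of these properties in its tRNA profile was not tested. In hiPSC-EV 1, 10 abundant features were at least 3 times higher than in hiPSC-EV 2 and 3, and this library had the lowest total of its stage. The spread of each replicate pair exceeded counting error (chi-square over degrees of freedom 48.6 to 623).

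**Figure D1:**
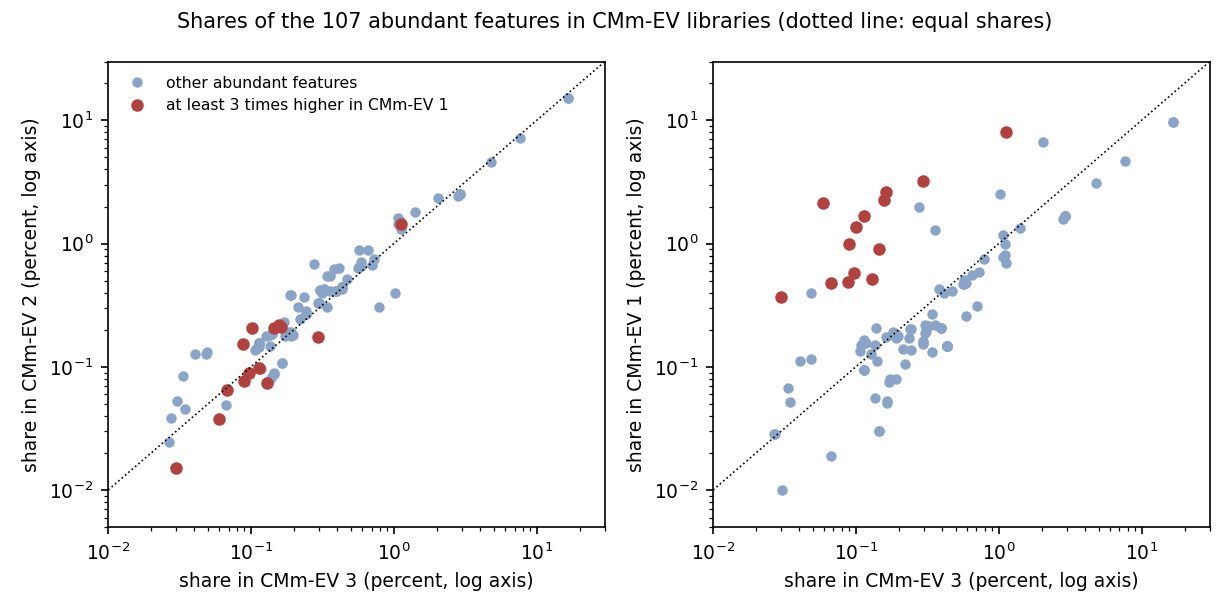
Each point is 1 of the 107 abundant features, with its share of the tRNA counts in CMm-EV 3 on the horizontal axis and in CMm-EV 2 (left) or CMm-EV 1 (right) on the vertical axis, in percent on log axes. The 14 red features are at least 3 times higher in CMm-EV 1 than in both other libraries and lie near the line of equal shares on the left (r = 0.957) but far above it on the right (r = 0.659).

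The plot of shares in the CMm-EV libraries shows this difference feature by feature. On the left, most points lie near the line, although some features, such as those of rank 70 (0.304% in CMm-EV 2 and 0.792% in CMm-EV 3) and rank 25 (0.680% and 0.278%), differ between these libraries too. On the right, the red features are raised in CMm-EV 1, and most of the others lie below the line. Several counts below that involve CMm-EV are therefore also given without CMm-EV 1.

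The abundant features made up nearly all of the EV tRNA counts, and a few sets made up most of that. The 107 features held 93.0% of the tRNA counts on average and between 91.4% and 94.0% in each library. The first 2 sets held 33.5%, the first 5 sets 55.0% and the first 10 sets 63.5%. The number of features that together reached 50% of the tRNA counts was 4 or 5 in hiPSC-EV, 6 to 9 in either CPC-EV or CMm-EV, and 8 to 10 in CMi-EV. By this measure only, the tRNA counts of hiPSC-EV were held by fewer features than those of CPC-EV, CMi-EV and CMm-EV, a difference that was not tested. The feature of rank 4 alone held 13.1% to 21.3% in hiPSC-EV, and its part in this was not tested. The features detected numbered 605 to 998 in hiPSC-EV and 615 to 818, 749 to 999 and 862 to 1040 in the later stages.

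Of the 88 sets, 78 held 1 feature and 10 held several, with 29 features between them. The largest set had 7 features, and in 1 set of several features the counts were identical in every library. Near the threshold, the features of rank 106 and 107 had mean shares of 0.103% and 0.102%, and those of rank 108 and 109, just outside, had 0.0976% and 0.0975%. The mean of the stage reached 0.1% in all 4 stages for 75 features, in exactly 3 for 14 and in exactly 2 for 18. A feature that passed through only some stages had to differ between stages, so counts over the 107 features describe them and support nothing more.

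**Figure D2:**
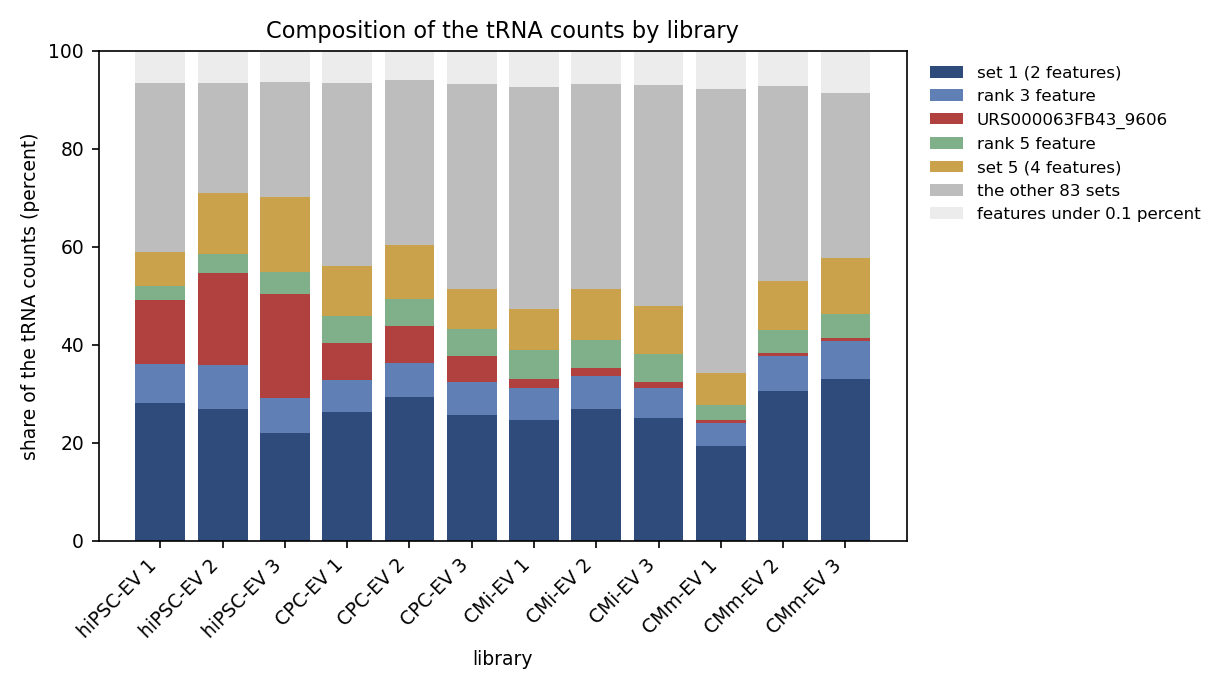
Each bar is 1 library and shows how its tRNA counts divide among the first 5 sets, the other 83 sets and all features under the threshold, in percent. URS000063FB43_9606 (red) lies between 13.1% and 21.3% in hiPSC-EV and between 0.589% and 0.748% in CMm-EV, while the first set lies between 19.3% and 33.0% in all 12 libraries.

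The first set, of ranks 1 and 2, was the largest part of the tRNA counts in each library, as the composition plot shows. Its 2 features differed by at most 0.539% in any library. Its summed share was 28.1%, 27% and 22.1% in hiPSC-EV, 26.3%, 29.3% and 25.6% in CPC-EV, 24.8%, 27% and 25.1% in CMi-EV, and 19.3%, 30.5% and 33.0% in CMm-EV. The 4 stages overlapped, and both the lowest value (CMm-EV 1) and the highest (CMm-EV 3) belonged to the last stage. Pairwise, its log2 fold changes of −0.11, −0.48 and −0.02 between successive stages were not called (adjusted p 0.826, 0.0947 and 0.965).

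The fifth set, of 4 features (ranks 6, 8, 9 and 10), came next, with a summed mean share of 10.0%. Its values were 6.88%, 12.4% and 15.2% in hiPSC-EV, 10.1%, 11.0% and 8.34% in CPC-EV, 8.31%, 10.2% and 9.74% in CMi-EV, and 6.62%, 10.0% and 11.5% in CMm-EV. The stages overlapped, with the widest spread in hiPSC-EV. The feature of rank 3 took 6.94% on average and between 4.71% (CMm-EV 1) and 8.99% (hiPSC-EV 2). The feature of rank 5 had 2.84%, 3.86% and 4.47% in hiPSC-EV, 5.58%, 5.61% and 5.37% in CPC-EV, 5.92%, 5.71% and 5.69% in CMi-EV, and 3.08%, 4.63% and 4.78% in CMm-EV. It was thus lower in all 3 hiPSC-EV libraries than in any CPC-EV library, and lower in all 3 CMm-EV libraries than in any CMi-EV library, yet no pairwise test called it (adjusted p 0.440, 0.216 and 0.385).

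Among sets 6 to 10, each a single feature, spread between replicates was often as large as that between stages. The feature of rank 7 had 3.94%, 1.02% and 1.22% in hiPSC-EV, 0.456%, 0.744% and 1.29% in CPC-EV, 5.38%, 3.85% and 1.40% in CMi-EV, and 6.73%, 2.37% and 2.04% in CMm-EV. The feature of rank 11 reached 8.03% in CMm-EV 1 and 1.45% and 1.13% in the other CMm-EV libraries. Both were high in CMm-EV 1 and hiPSC-EV 1 relative to the other libraries of those stages. Ranks 12 and 13 followed each other closely, at 1.36% and 1.30% on average. Rank 14 had 0.587%, 0.377% and 0.247% in hiPSC-EV and between 1.00% and 1.99% in all other libraries, so that hiPSC-EV did not overlap with any later stage.

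**Figure D3:**
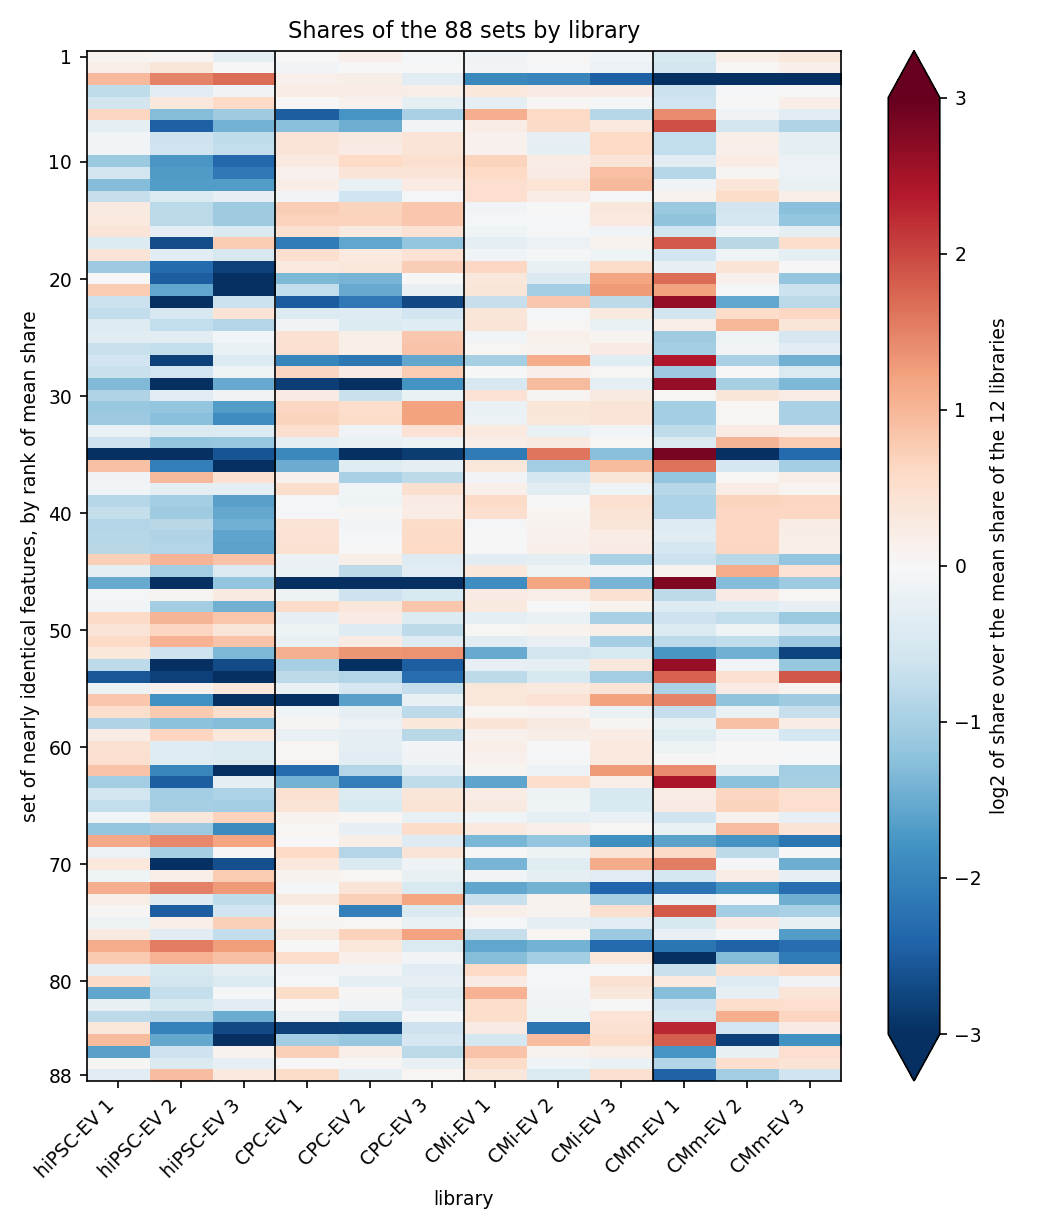
Each line is 1 of the 88 sets, in order of the rank of its first feature, and each column 1 library. The colour gives the log2 of the summed share of the set over its mean in the 12 libraries. The third set, URS000063FB43_9606, turns from red to deep blue along the stages, and CMm-EV 1 shows red lines most of which are pale or blue in CMm-EV 2 and CMm-EV 3.

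The heat map shows 3 kinds of pattern among the 88 sets. Some turn from red to blue from left to right, led by the third set. Others are blue in the hiPSC-EV columns and pale or red in all later ones. A number of lines are red in CMm-EV 1 alone or in CMm-EV 1 and CMi-EV libraries. Within a stage, the median coefficient of variation of the 107 shares was 26.6%, 20.7%, 20.3% and 35.4% in stage order. The CMm-EV value rests on CMm-EV 1, without which it was 17.6%. Between stages, the ratio of the highest to the lowest mean share had a median of 2.45, was at least 2 for 67 features and at least 4 for 22 (20 without CMm-EV 1). The highest mean lay in hiPSC-EV for 22 features, with 29, 25 and 31 for the later stages in order (25, 29 and 31 without CMm-EV 1). The mean share fell at each of the 3 steps in 12 features (8 without CMm-EV 1) and rose at each in 15 (19 without it).

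URS000063FB43_9606, the feature of rank 4, had the largest ratio between stages of all abundant features. As a single feature it had the largest mean share in hiPSC-EV, below the 25.7% that the 2 features of the first set held together. In CMm-EV it was the 25th feature by mean share. Its share of the tRNA counts was 13.1%, 18.7% and 21.3% in hiPSC-EV 1, 2 and 3, 7.47%, 7.51% and 5.30% in CPC-EV, 1.76%, 1.69% and 1.22% in CMi-EV, and 0.589%, 0.748% and 0.733% in CMm-EV. Every library of a stage lay below every library of the stage before it, so no neighbouring stages overlapped. The means were 17.7% ± 4.20 (SD, n = 3), 6.76% ± 1.27, 1.56% ± 0.292 and 0.690% ± 0.0875, and the ratio of the first to the last was 25.7. The feature was named with its fall already known, so its levels and fold changes are a description here and below, with no test beside them. It is counted among the called features of the table-wide fits, where its call supports nothing about its fall, and the same holds for URS0000739B5B_9606. The 95% Wilson interval was 21.2% to 21.5% in hiPSC-EV 3 and 0.544% to 0.637% in CMm-EV 1, so counting error was small beside the differences between stages.

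The fall did not depend on taking shares within tRNA. In the deposited RPM, which scale reads to the library total, the same feature had 13157, 16153 and 9387 in hiPSC-EV, 4952, 4218 and 4000 in CPC-EV, 1051, 1225 and 704 in CMi-EV, and 384, 278 and 223 in CMm-EV. Neighbouring stages did not overlap on this scale either. EV preparations are bulk samples, so fewer vesicles from one kind of cell and less of an RNA per vesicle cannot be told apart.

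URS0000739B5B_9606, the feature of rank 94, fell in the same order at a far lower level. Its share was 0.284%, 0.382% and 0.315% in hiPSC-EV, 0.129%, 0.167% and 0.0975% in CPC-EV, 0.0448%, 0.0494% and 0.0260% in CMi-EV, and 0.0288%, 0.0244% and 0.0268% in CMm-EV. The first 3 stages did not overlap, whereas CMi-EV 3 lay within the range of CMm-EV. The means were 0.327% ± 0.0501 (SD, n = 3), 0.131% ± 0.0350, 0.0400% ± 0.0124 and 0.0267% ± 0.00218, a ratio of 12.2 between the first and the last. It was the 33rd feature of hiPSC-EV and the 185th of CMm-EV by mean share, and it reached the threshold only through hiPSC-EV and CPC-EV, so that a difference from the later stages was built into its choice, and no test against them is given. Its counts ran from 30.1 to 1495, and the Wilson interval of 0.0201% to 0.0410% in CMm-EV 1 covers the values of all CMm-EV libraries and of CMi-EV 3.

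**Figure D4:**
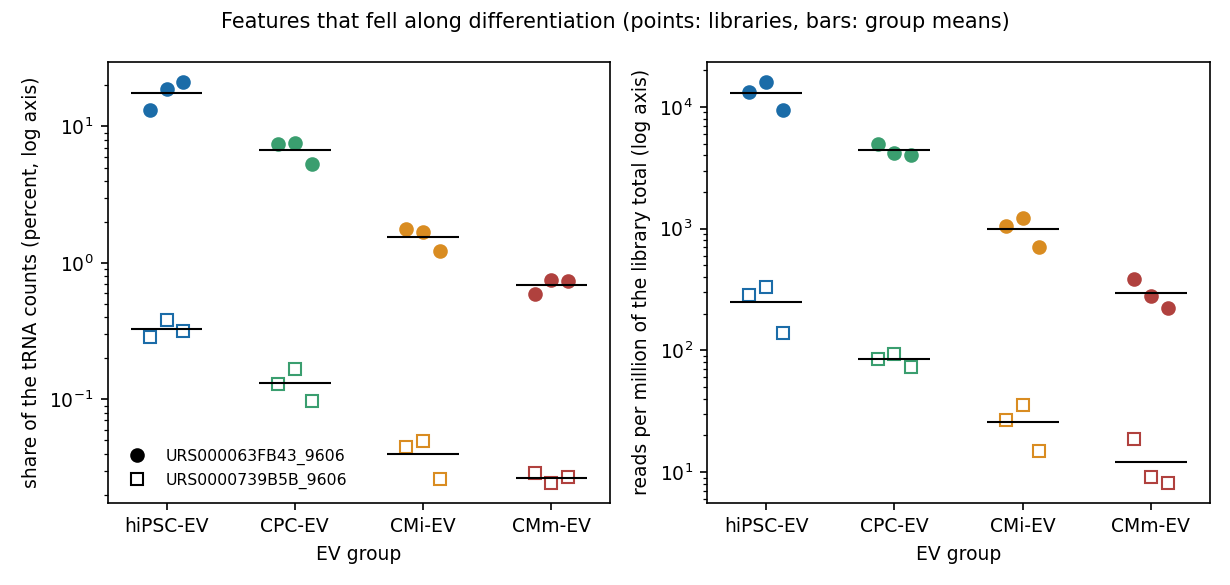
Points are libraries and bars are stage means of URS000063FB43_9606 (filled circles) and URS0000739B5B_9606 (open squares), as a share of the tRNA counts in percent (left) and as RPM of the library total (right), both on log axes. The mean share falls from 17.7% to 0.690% for the former and from 0.327% to 0.0267% for the latter.

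The plot of both falling features shows nearly parallel courses on the log axis through CMi-EV, on either scale. Between CMi-EV and CMm-EV the open squares overlap on both scales, whereas the filled circles remain apart on both.

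Markers of the cell types moved along the same stages, and their part in the fall was not tested. All 5 of 5 pluripotency miRNA were in the tables, and their summed level averaged 188229, 95790, 5771 and 129 CPM (counts scaled to the miRNA total of the library) from hiPSC-EV to CMm-EV, with miR-302b-3p the most abundant. All 5 of 5 pluripotency transcripts were there too, at 505, 369, 47.8 and 2.54 CPM of the gencode counts, and POU5F1, which maintains pluripotency, was at 0 in all CMi-EV and CMm-EV libraries. The 5 cardiomyocyte miRNA, led by miR-1-3p, summed to 60.3, 1617, 53799 and 55501 CPM, and the 6 cardiomyocyte transcripts, led by MYH6, which encodes a cardiac myosin heavy chain, to 4.54, 237, 2806 and 2546 CPM. Both pluripotency sums were thus highest in hiPSC-EV, although LIN28A alone averaged 184 CPM in hiPSC-EV and 334 CPM in CPC-EV. Both cardiomyocyte sums were high in CMi-EV and CMm-EV alike, whereas miR-499a-5p (0, 15.4 and 94.5 CPM in CMi-EV, 201, 256 and 218 CPM in CMm-EV) and miR-208b-3p (0, 0 and 37.4 CPM, then 63.0, 51.8 and 58.0 CPM) did not overlap between these stages. Nor did miR-208a-3p, which went the other way (550, 744 and 801 CPM, then 424, 439 and 318 CPM). Of 7 cardiac progenitor transcripts 5 were in the table, without ISL1 and NKX2-5, and they summed to 1.78, 211, 109 and 103 CPM. The last value rests on CMm-EV 1 (228 CPM, all of it HAND2), against 21.7 CPM in CMm-EV 2.

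Markers of other sources were also measured. The 2 endoderm and liver miRNA summed to 65.7, 6871, 1393 and 452 CPM along the stages. By mean, the larger part was miR-375-3p in hiPSC-EV and CPC-EV (65.3 and 5862 CPM) and miR-122-5p in CMm-EV (445 CPM). In CMi-EV it was miR-375-3p in libraries 1 and 2 (604 and 681 CPM) and miR-122-5p in CMi-EV 3 (2035 CPM). AFP had 12 counts in all, and APOA1 and TTR were not in the table. Of 4 blood and serum miRNA, 3 were in the table and summed to 6953, 1498, 1746 and 532 CPM, nearly all of it miR-486-5p. The red cell miRNA miR-451a was at 2.89, 33.3, 0 and 0.889 CPM, and miR-223-3p, HBA1 and HBB were not in the tables. Like the falling tRNA features, miR-486-5p was highest in hiPSC-EV and lowest in CMm-EV, and its part in their course was not tested.

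The amount of tRNA as a class did not separate the stages. Of the counts on the 5 RNA classes, tRNA held 12.0%, 9.55% and 4.82% in hiPSC-EV, 7.95%, 6.82% and 9.07% in CPC-EV, 6.71%, 8.18% and 6.78% in CMi-EV, and 8.16%, 3.99% and 3.19% in CMm-EV. The stages overlapped, with the widest range in hiPSC-EV. The means were 8.80% ± 3.66 (SD, n = 3), 7.95% ± 1.12, 7.22% ± 0.832 and 5.12% ± 2.67, and an exact permutation test of the F statistic over the 15400 divisions of 12 libraries into 4 groups of 3, one-sided by construction, gave p = 0.346. Without hiPSC-EV 3, the hiPSC-EV library with the lowest value, p was 0.0417, so that the result rests on that library.

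Across the 4 stages together, the F-test of edgeR asked which features differed anywhere. It called 53 of the 107 abundant features (49.5%) at an adjusted p of 0.05, in 45 of the 88 sets, against 43% of the 577 features tested and 41.5% of the 470 others. The share of abundant features called was thus near that of all features with TMM scaling, and it is no result about abundance. Of the first 10 sets, 8 were called. Apart from URS000063FB43_9606, the smallest adjusted p among these were 0.00532 for rank 14 and 0.00590 for rank 3, while ranks 7 and 11 were not called (0.103 and 0.304). The first set passed only narrowly (0.0341) at shares that overlapped between all stages, and so did the fifth set (0.0326). The shares of rank 3 overlapped between neighbouring stages too. The TMM factors ran from 0.664 to 0.756 in hiPSC-EV, from 0.890 to 0.971 in CPC-EV and from 1.08 to 1.38 in the later stages. A difference in this fit is thus not the difference in the printed shares. With median-of-ratios scaling the count was 34 (31.8%, against 45.4% of all tested), and with the authors' library totals it was 25 (23.4%, against 36% of all tested), so that the abundant features lay below the background under both. Of all features called, 53 of 248 were abundant with TMM, 47 of 217 with DESeq2 and 49 of 288 with library size only. The place of the abundant features beside the background thus moved with scaling and test. Without hiPSC-EV 2 the count was 32 and without CPC-EV 1 it was 31. Without CMm-EV 1 it was 57, and 43 features were called both with and without that library. Where a count has no share of all tested features beside it, here and below, it shows how the calls moved. It then supports nothing about the abundant features.

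Comparing CPC-EV with hiPSC-EV asks what changed as pluripotent cells became cardiac progenitors. Features rose and fell in this step, and the falls included the single feature with the largest mean share of the hiPSC-EV counts. Of the 107 abundant features, 7 were called (6.54%), at an adjusted p of at most 0.05 and a change of 1 or more on the log2 scale, against 2.99% of the 402 features tested. Of these 7, each in a set of its own, 5 were higher in CPC-EV (1.99% of all tested were) and 2 were lower (0.995% of all tested were). The share was higher than the background, but the count moved with single libraries and with the scaling, as given below. Of the 2 lower features, 1 was named with its fall already known. Part of the difference of the other was built into its choice, as stated below. Features under the threshold also scatter more widely. The count of 7 and its share therefore support nothing about the abundant features. At an unadjusted p of 0.05, 48 abundant features passed, a count that has no share of all tested beside it and is no result about them.

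The 2 that fell were URS000063FB43_9606 and the feature of rank 84. The former went from between 13.1% and 21.3% to between 5.30% and 7.51%, with a log2 fold change of −1.55 (SE 0.316). Rank 84 had 0.349%, 0.430% and 0.360% in hiPSC-EV and 0.157%, 0.180% and 0.122% in CPC-EV, with a log2 fold change of −1.48 (SE 0.309). Both were lower in all 3 CPC-EV libraries than in any hiPSC-EV library. Rank 84 averaged 0.380% in hiPSC-EV, 0.153% in CPC-EV and under 0.1% in both later stages. Part of its difference from hiPSC-EV was thus built into its choice, and its call supports nothing about its fall. URS0000739B5B_9606 had a log2 fold change of −1.48 as well (SE 0.340), with all CPC-EV libraries below all hiPSC-EV libraries.

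The 5 that rose were the features of rank 14, 16, 24, 36 and 37. URS00004D4536_9606, of rank 24, had 0.312%, 0.133% and 0.0954% in hiPSC-EV and 0.816%, 0.846% and 1.11% in CPC-EV, with a log2 fold change of 2.17 (SE 0.451, adjusted p 0.0333). Rank 37 had 0.174%, 0.156% and 0.101% in hiPSC-EV and 0.586%, 0.537% and 0.848% in CPC-EV, with a log2 fold change of 1.99 (SE 0.337, adjusted p 0.0178). In each of them, all CPC-EV libraries were above all hiPSC-EV libraries. Rank 36 had nearly the same shares as rank 37 (0.171%, 0.164% and 0.117%, then 0.576%, 0.537% and 0.855%), so that both may rest on shared reads. Ranks 14 and 16 rose by 1.93 and 1.44 on the log2 scale, from 0.587%, 0.377% and 0.247% to 1.54%, 1.93% and 1.77% and from 0.509%, 0.395% and 0.395% to 1.43%, 1.07% and 1.49%.

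In shares, 54 abundant features (50.5%) did not overlap between CPC-EV and hiPSC-EV, against 32.6% of all tested. Features of the same set are counted separately here, among them all 7 of the largest set, and features under the threshold scatter more widely. This share is therefore no result about the abundant features. The median log2 fold change was 0.28 over the abundant features and −0.30 over all tested, and with library size only, without a scaling factor, it was 0.46 and −0.09. Counts of abundant features higher and lower were 5 and 2 with TMM scaling, 4 and 4 with median-of-ratios, 23 and 4 with library size only, 0 and 0 with the authors' library totals, and 14 and 11 with DESeq2. Only the TMM fit has a share of all tested beside it, and its count supports nothing about the abundant features, as stated above. The other counts show no more than how the calls moved. Where edgeR called 0, with the authors' totals, 16 abundant features passed at an unadjusted p of 0.05. The count was 15 without hiPSC-EV 1, 4 without hiPSC-EV 3, 2 without CPC-EV 1 and 2 without CPC-EV 3. URS000063FB43_9606 had a log2 fold change between −1.71 and −1.40 whichever library was left out, but was called in only 1 of these 6 fits. URS00004D4536_9606 was called only without hiPSC-EV 1, where its log2 fold change was 2.83 (adjusted p 0.00242), and its adjusted p was between 0.0591 and 0.0843 without hiPSC-EV 2, hiPSC-EV 3, CPC-EV 1, CPC-EV 2 or CPC-EV 3. Rank 84 was not called without hiPSC-EV 2, hiPSC-EV 3, CPC-EV 1 or CPC-EV 3. URS00004D4536_9606 was not called with median-of-ratios either (adjusted p 0.0504). Rank 37 was called whichever of the 6 libraries was left out.

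Comparing CMi-EV with CPC-EV asks what changed as progenitors became beating cardiomyocytes. It shares the CPC-EV libraries with the step before, so the values of both steps are not independent. By log2 fold change, this step held the largest fall of URS000063FB43_9606. In percentage points its mean share fell more in the step before (from 17.7% to 6.76%, and then to 1.56%). Of the 107 abundant features, 15 were called (14%), against 6.56% of the 457 features tested, and 48 passed at an unadjusted p of 0.05. Of the 15, 6 were higher in CMi-EV (2.63% of all tested were) and 9 were lower (3.94% of all tested were). Of the 15, 8 (ranks 27, 34, 62, 84, 89, 90, 93 and 94) reached the threshold in only 1 of these 2 stages, so that part of their difference was built into their choice. Their values are descriptions, given without p, and the count supports nothing about the abundant features.

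URS000063FB43_9606 went from 7.47%, 7.51% and 5.30% to 1.76%, 1.69% and 1.22% with a log2 fold change of −2.53 (SE 0.229). Rank 68 had 0.481%, 0.572% and 0.583% in CPC-EV and 0.0804%, 0.155% and 0.166% in CMi-EV, and fell by 2.40 (SE 0.315, adjusted p 0.000481). URS0000739B5B_9606 had 0.129%, 0.167% and 0.0975%, then 0.0448%, 0.0494% and 0.0260%, with a log2 fold change of −2.14 (SE 0.399). In all of these, each CMi-EV library lay below each CPC-EV library, and the call of rank 68 held whichever of the 6 libraries was left out. Rank 68 had been lower in hiPSC-EV (0.283%, 0.148% and 0.0906%) than in CPC-EV, and so had ranks 18, 19, 90 and 93 by mean share.

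The 6 other features that fell were those of rank 18, 19, 84, 89, 90 and 93, with log2 fold changes from −2.17 (rank 89) to −1.01 (rank 18). Ranks 18 and 19 were common features, at 1.53%, 1.45% and 1.61% and at 1.48%, 1.48% and 1.60% in CPC-EV and at 0.861%, 0.911% and 1.17% and 0.890%, 0.892% and 1.12% in CMi-EV. Their values were so alike that they may rest on shared reads, and the same holds for rank 89 and URS0000739B5B_9606, which had 0.284%, 0.382% and 0.323% and 0.284%, 0.382% and 0.315% in hiPSC-EV.

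The 6 features that rose were those of rank 7, 21, 27, 32, 34 and 62. URS000048F74C_9606, of rank 62, had 0.0308%, 0.0300% and 0.0259% in CPC-EV and 0.0673%, 0.553% and 0.0918% in CMi-EV, with a log2 fold change of 2.62 (SE 0.643). The groups did not overlap, but CMi-EV 2 was far above the other CMi-EV libraries. Without CMi-EV 2 its log2 fold change was 1.08, and it was not called without CMi-EV 2 or CMi-EV 3. Rank 34 had 0.0591%, 0.0425% and 0.120% in CPC-EV and 0.298%, 0.800% and 0.343% in CMi-EV, without overlap and with a log2 fold change of 2.35 (SE 0.418). Rank 7, the most common of them, went from between 0.456% and 1.29% to between 1.40% and 5.38%, with a log2 fold change of 1.68 (adjusted p 0.0155). Of these 6, ranks 27, 32, 34 and 62 are among the 14 features raised in CMm-EV 1.

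In shares, 40 abundant features (37.4%) did not overlap between CMi-EV and CPC-EV, against 27.6% of all tested. Features of the same set are again counted separately, so this share too is no result about the abundant features. The median log2 fold change was −0.23 over the abundant features and 0.08 over all tested with TMM scaling, −0.01 and 0.29 with median-of-ratios, 0.18 and 0.48 with library size only, and 0.05 and 0.42 with the authors' totals, so that the sign for the abundant features turned with the scaling, while they stayed below the median of all features under each. Counts of abundant features higher and lower were 6 and 9 with TMM, 6 and 7 with median-of-ratios, 10 and 7 with library size only, 9 and 7 with the authors' totals and 8 and 7 with DESeq2. The count was 2 with the filter filterByExpr and 5 with dispersions from all 12 libraries.

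**Figure D5:**
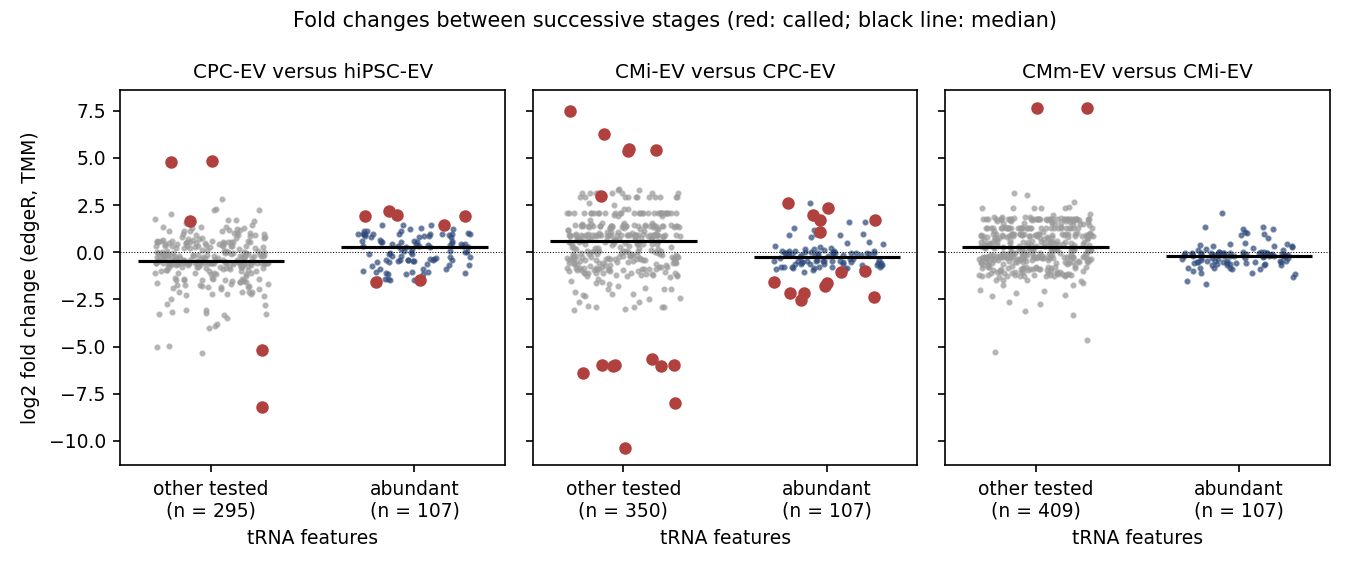
Points are log2 fold changes of tRNA features tested in each comparison of successive stages, with the 107 abundant features beside all others, called features in red and the median as a black line. The called abundant features number 7, 15 and 0 from left to right, and their fold changes lie closer to zero than those of most other called features.

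The plot of fold changes places the abundant features beside the rest. Features under the threshold scatter more widely, as low counts do, and their few called points are mostly far from zero. Among the abundant features, the falling points in the middle panel are led by URS000063FB43_9606.

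Comparing CMm-EV with CMi-EV asks what changed as the cardiomyocytes matured in culture. It shares the CMi-EV libraries with the step before. With all libraries, edgeR called 0 of the 107 abundant features, against 0.388% of the 516 features tested. At an unadjusted p of 0.05, 7 abundant features passed, and DESeq2 called 0, with 8 at an unadjusted p of 0.05. In shares, 20 abundant features (18.7%) did not overlap between the stages, against 26.6% of all tested, a smaller part than in the background. This count includes CMm-EV 1 and was not made without it, so it is no result about the abundant features. The median log2 fold change was −0.19 over the abundant features and −0.01 over all tested. With the authors' totals these medians were −0.66 and −0.46, and 44 abundant features passed at an unadjusted p of 0.05. That count has no share of all tested beside it, and the median of all tested was lower there too, so it is no result about the abundant features.

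URS000063FB43_9606 had 1.76%, 1.69% and 1.22% in CMi-EV and 0.589%, 0.748% and 0.733% in CMm-EV, with a log2 fold change of −1.29 (SE 0.366). Its stages did not overlap. URS0000739B5B_9606 had a log2 fold change of −0.70 with overlapping stages. URS00004D4536_9606, which had risen in CPC-EV, had 1.03%, 0.572% and 0.982% in CMi-EV and 0.557%, 0.884% and 0.656% in CMm-EV, which overlapped, and its log2 fold changes over the last steps were −0.47 and −0.39, neither of them called.

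The feature of rank 70, chosen after its values were seen, had the smallest adjusted p among the abundant features in this step. Its shares were 0.127%, 0.157% and 0.105% in CMi-EV and 0.745%, 0.304% and 0.792% in CMm-EV, with a log2 fold change of 2.09 (SE 0.462, adjusted p 0.0614). All CMm-EV libraries lay above all CMi-EV libraries. Its shares in hiPSC-EV were lower still, at 0.0365%, 0.0313% and 0.0261%. By mean it had 0.614% in CMm-EV, 0.130% in CMi-EV and under 0.1% in both earlier stages. Part of its difference was thus built into its choice, and neither its p nor a call supports anything about its rise.

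CMm-EV 1 decided this comparison. Without it, 11 abundant features were called, 1 higher and 10 lower, against 5.44% of the 570 features then tested, and 26 passed at an unadjusted p of 0.05. Rank 70 was then called as higher (log2 fold change 1.87), a call that, as stated above, supports nothing about its rise. URS000063FB43_9606, counted among the lower, had a log2 fold change of −1.24. The other 9 that fell were the features of rank 11, 18, 19, 27, 32, 34, 42, 72 and 103. Of these 9, ranks 11, 27, 32, 34, 42, 72 and 103 are among the 14 features raised in CMm-EV 1, whose mean in CMm-EV drops by construction when that library is left out. URS000048F74C_9606, another of the 14, had 1.68%, 0.0979% and 0.115% in CMm-EV, and its log2 fold change turned from 1.34 (adjusted p 0.522) to −1.32 (adjusted p 0.152) without CMm-EV 1. The median over the abundant features was −0.31 without CMm-EV 1, against 0.10 over all tested. Without the library of lowest total in each stage, CMm-EV 1 and CMi-EV 3 here, 9 abundant features were called, against 5.78% of the 588 features then tested.

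Side by side, the log2 fold changes over the 3 steps were −1.55, −2.53 and −1.29 for URS000063FB43_9606 and −1.48, −2.14 and −0.70 for URS0000739B5B_9606. For URS00004D4536_9606 they were 2.17, −0.47 and −0.39, and for URS000048F74C_9606 −1.44, 2.62 and 1.34. The first pair thus had negative values at each step, URS00004D4536_9606 rose once and was then not called, and URS000048F74C_9606 rested on CMi-EV 2 and CMm-EV 1. Whether the fold changes of a feature differ between steps was not tested.

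Other genes of tRNA biology were looked up among the gencode transcripts of the same libraries, where fragments of messenger RNA are counted. The list of tRNA anticodons common outside cells could not be used, since no anticodon is named, and the list of mitochondrial tRNA genes found no entry in the gencode table. Aminoacyl-tRNA synthetases, which load tRNA with amino acids, were all present, 20 of 20, but at 8.25 to 444 counts per library in sum. Of the 10 that passed the filter, 5 were called across the stages (FARSB, TARS, MARS, LARS and KARS), against 32.9% of the 3381 transcripts tested, and the median F was 3.71 against 3.23. The filter let FARSB, TARS, MARS and LARS in only through hiPSC-EV and KARS only through CPC-EV, stages in which they were high, so that a difference was built in and the count is no support for one. FARSB, a subunit of the phenylalanine enzyme, had 120, 25.2 and 7.86 CPM in hiPSC-EV and no count in any later library. TARS, the threonine enzyme, had 60.6, 16.9 and 14.8 CPM in hiPSC-EV and at most 6.86 CPM elsewhere. LARS, the leucine enzyme, was detected in all hiPSC-EV and in CPC-EV 2 and 3 but in no CMi-EV or CMm-EV library. The 5 others tested, EPRS, AARS, YARS, WARS and GARS, were not called. With filterByExpr as the filter, edgeR called 0 of 8, of which 3 passed at an unadjusted p of 0.05, and DESeq2 called 4. Without any 1 library the count ran from 3 to 6, and it was 3 without hiPSC-EV 2, hiPSC-EV 3, CPC-EV 2 or any 1 of the CMi-EV and CMm-EV libraries. Of the 31 genes of tRNA cleavage, processing and modification, 29 were in the table with 0.667 to 254 counts per library in sum, and none passed the filter, so a difference was not detectable at this depth. Synthetase messenger RNA and tRNA features were counted in different tables, and no relation between them was tested.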

How the data were processed

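Small RNA of 12 EV libraries, 4 stages of 3, was analysed from the tables deposited by the authors, who used the exceRpt pipeline on hg38. The count tables hold expected counts deposited by the authors, and the tRNA values scaled to library totals are RPM deposited by the authors, from which the library totals were derived. No column lay outside the sample map. The members and lists were chosen with earlier results of these data known.

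Expected counts were rounded and fitted over the whole tRNA table with edgeR 4.0.16 (quasi-likelihood, R 4.3.3) and TMM scaling, two-sided for pairs, each pair on its own 6 libraries. Tested were features with at least 5 CPM of the tRNA counts in every library of at least 1 group, with Benjamini-Hochberg adjustment over all of them. Gencode transcripts of the lists (mitochondrial tRNA, synthetases, cleavage and modification) were fitted in the same way. Named are the 2 falling features, the first 10 sets by rank of their first feature, and the 2 largest called rises and falls of each pair. The features beside the threshold are named too, and exceptions are stated as chosen after their values were seen.

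Alternatives were median-of-ratios, library size only, the authors' library totals, no filter, filterByExpr, DESeq2 1.42.0, a replicate term, 1 representative per set, dispersions from all 12 libraries, other denominators or the log2 scale for shares, and each library left out once. Permutation tests ran in Python 3.11.15 with scipy 1.17.1 and numpy 2.4.6, and figures with matplotlib 3.10.9 from pandas 2.3.3 tables. The fitting code was tested on simulated data. The authors' normalized tables hold miRNA only and were not used.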

Additional observations from a re-analysis of the deposited data

How the results depend on the processing

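Of 421 alternatives, 101 of those for counts and shares stayed within 1.5 times the value or on the same side of the threshold, 31 moved further and 1 passed the threshold. Of those for named features, 234 kept direction and call, 36 lost a call, 16 gained one and 2 reversed. The cause was not tested unless stated.

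Across the 4 stages, the 53 called abundant features became 34 with median-of-ratios and 25 with the authors' library totals, and 31 to 57 with 1 library left out. For CPC-EV versus hiPSC-EV, the 7 became 27 with library size only, 0 with the authors' totals, 23 with no filter, 25 with DESeq2, 14 with 1 representative per set and 2 to 15 with 1 library left out. For CMi-EV versus CPC-EV, the 15 became 2 with filterByExpr, 5 with dispersions from all 12 libraries and 12 to 20 with 1 library left out. For CMm-EV versus CMi-EV, the 0 became 1 with library size only and 0 to 11 with 1 library left out. The 5 called synthetases, of 10 tested, became 0 of 8 with filterByExpr, and 3 to 6 with 1 library left out. The permutation p of the tRNA share of the classes ran from 0.0417 to 0.647 with 1 library left out.

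Without the library of lowest total in each stage, an alternative chosen after seeing the data, the counts were 39 across stages and 19, 16 and 9 for the 3 pairs. URS000048F74C_9606 reversed in CMm-EV versus CMi-EV, from 1.34 to −1.32 without CMm-EV 1 and to −1.76 without the libraries of lowest total, and it ran from −1.32 to 2.93 with 1 library left out.

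The labels do not say that replicate numbers pair the cultures. Libraries of the same number correlated, over deviations from the stage means, at −0.54 to 0.39, −0.014 to 0.34 and −0.62 to −0.10 in the 3 pairs. Between hiPSC-EV and CMm-EV libraries of the same number correlated at 0.59, 0.66 and 0.28, and over all stages 4 of 12 libraries correlated best with their own number. Libraries of different numbers reached similar values, such as 0.67 between hiPSC-EV 1 and CPC-EV 3 and 0.61 between hiPSC-EV 2 and CMm-EV 3. A term for the number gave 45 features across stages, 0, 1 and 0 for the pairs and 4 synthetases.

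Sets numbered 99 at a tolerance of 1% and 73 at 20%. Depth limits the rarer features most, since URS0000739B5B_9606 rests on as few as 30.1 counts in a library. With 3 cultures of 1 line per stage, the spread between donors is unknown.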

Other observations

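A small group of abundant features was high in the library of lowest total. By the library totals behind the deposited RPM, the lowest of each stage were hiPSC-EV 1 (total 1514392), CPC-EV 3 (total 3686897), CMi-EV 3 (total 2161205) and CMm-EV 1 (total 1606949), whereas by tRNA counts the lowest CPC-EV library was CPC-EV 1. Of the abundant features, 6, of rank 25, 26, 43, 72, 78 and 102, had their highest share of the stage in the library of lowest total in all 4 stages. Together they held 2.94% in hiPSC-EV 1 against 0.506% and 0.105% in hiPSC-EV 2 and 3, and 1.72% in CPC-EV 3 against 0.761% and 0.843% in CPC-EV 1 and 2. They held 4.40% in CMi-EV 3 against 2.46% and 1.34% in CMi-EV 1 and 2, and 5.77% in CMm-EV 1 against 1.75% and 1.10% in CMm-EV 2 and 3. Of 284 features under the threshold with a count in every library, 5 had this pattern. The features were chosen after their values were seen, 4 of the 6 are also among the 14 raised in CMm-EV 1, and no test was made.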
